A study of Saccharomyces cerevisiae with 6 samples.

Results

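The 35 genes described here encode nuclear-encoded subunits of the mitochondrial respiratory chain and ATP synthase of the budding yeast Saccharomyces cerevisiae. They were chosen by name, with earlier results of these data known. The set holds 4 subunits of complex II (SDH1 to SDH4), 9 of complex III (COR1, QCR2, CYT1, RIP1 and QCR6 to QCR10), 8 of complex IV (COX4, COX6 to COX9, COX12, COX13 and COX26) and 14 of ATP synthase. All 35 were found among the 6931 loci of the count table, and all passed the filter on low counts. Of them, 34 were alone in their locus, and ATP14 shared its locus with YLR294C, which overlaps it by 32 bases on the same strand. ATP1 overlaps YBL100C by 251 bases on the opposite strand, and without a stated strand setting the reads of that pair cannot be told apart.

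Complex II (succinate dehydrogenase) passes electrons from succinate to ubiquinone, complex III (cytochrome bc1) passes them on to cytochrome c, and complex IV (cytochrome c oxidase) delivers them to oxygen. Complexes III and IV pump protons across the inner membrane, and ATP synthase uses the returning protons to make ATP. Budding yeast has no complex I and uses single-subunit NADH dehydrogenases in its place. The subunits of complexes III and IV and of ATP synthase come from both the nuclear and the mitochondrial genome, and the nuclear genes are known to rise in respiring cells through the HAP activator, a complex whose regulated subunit is Hap4.

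RNA was sequenced from 6 samples of the laboratory background W303 in 3 groups of 2. The group Psd1_oe_Pdr3_ko2 lacked PDR3, a zinc cluster regulator of drug resistance genes, and carried a 2µ plasmid with PSD1, whose enzyme makes phosphatidylethanolamine in the mitochondrial inner membrane, under the GAL promoter. Psd1_oe2 carried the same construct with PDR3 present, and WT was the wild-type control. All were grown on raffinose (2%) with yeast extract (1%) and peptone (2%). The series studies how yeast responds to stress on mitochondrial protein import. For the induction with 2% galactose for 4 h the labels leave unsaid which samples received it. Whether replicates were separate cultures is not stated either, and the p-values measure only how far these libraries spread, which may be technical.

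Libraries held between 10220872 and 12315448 counts. PSD1 had 9369 and 9070 CPM (counts scaled to library size, with TMM factors) in Psd1_oe_Pdr3_ko2, 14460 and 16490 CPM in Psd1_oe2, and 1495 and 1319 CPM in WT. PDR3 had 3 and 9 counts in Psd1_oe_Pdr3_ko2, 2283 and 2245 counts in Psd1_oe2, and 724 and 798 counts in WT. The 7 galactose genes, among them the kinase gene GAL1 and the activator gene GAL4, summed to 28250 and 27910 CPM in Psd1_oe_Pdr3_ko2, 21560 and 20670 CPM in Psd1_oe2, and 314.6 and 240.7 CPM in WT. Of these, 6 rose and GAL4 fell in Psd1_oe2 against WT, and 6 rose in Psd1_oe_Pdr3_ko2 against WT. In both comparisons with WT, the construct and the response to galactose therefore cannot be told apart.

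The first comparison asked how the subunit genes differed in cells that overexpressed PSD1. In Psd1_oe2, 34 of the 35 genes fell against WT and none rose (edgeR quasi-likelihood test, adjusted p from 1.64e-07 to 4.32e-05 for the 34), while 27.9% of all 6171 tested loci fell and 27.9% rose. The exception was COX26, a small subunit of complex IV, at log2 0.53 ± 0.23 (SE; edgeR adjusted p = 0.072). The median log2 fold change of the 35 genes was -0.83, a 1.77-fold lower level, against a median of 0.01 and a 5th percentile of -0.69 over all tested loci. For 34 genes both Psd1_oe2 libraries lay below both WT libraries, a pattern seen in 38.4% of all tested loci, and for COX26 they lay above. Together the 35 genes took 2.14% and 2.05% of the counts in Psd1_oe_Pdr3_ko2, 1.64% and 1.58% in Psd1_oe2, and 3.01% and 2.94% in WT. In bulk samples, fewer cells that express a gene and less RNA per cell cannot be told apart.

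**Figure D1:**
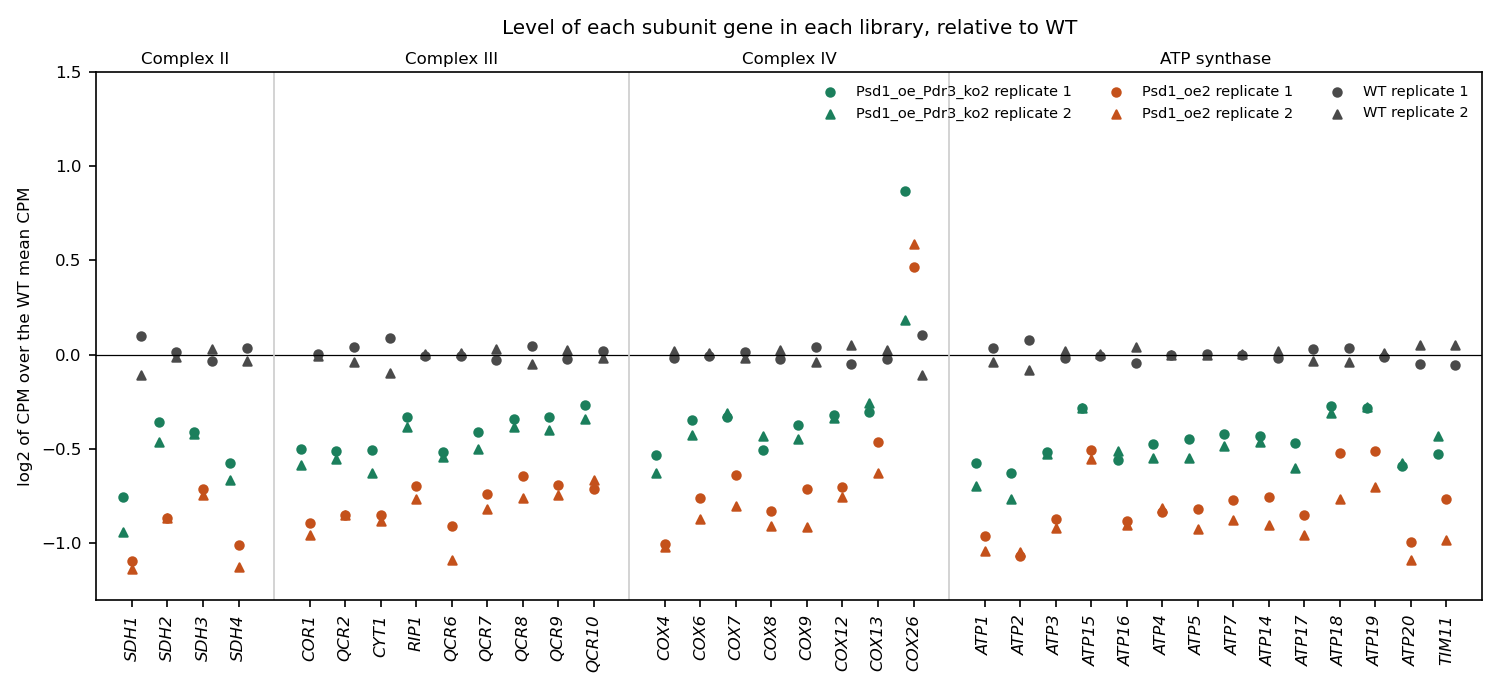
Level of each subunit gene in each library, as log2 of its CPM over the mean CPM of the WT libraries (vertical axis), with genes grouped by complex along the horizontal axis and symbols for replicates. Psd1_oe_Pdr3_ko2 (green) lies between Psd1_oe2 (orange) and WT (grey) for 34 genes, and COX26 lies above WT in both other groups.

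Complex II had the lowest median of the 4 complexes, at log2 -0.97, with no test made between complexes. SDH1 (YKL148C, chromosome XI, 169207 to 171129, R64 build), the flavoprotein that oxidises succinate, had 885 and 779 CPM in Psd1_oe_Pdr3_ko2, 699 and 679 CPM in Psd1_oe2, and 1602 and 1384 CPM in WT. No library of one group reached into another, and the fall of 2.17-fold in Psd1_oe2 against WT was the largest among the 35 genes (log2 -1.12 ± 0.08, edgeR adjusted p = 1.51e-06). SDH2 (YLL041C, chromosome XII, 53131 to 53931), the iron-sulfur subunit, had 930.3 and 865 CPM in Psd1_oe_Pdr3_ko2, 653 and 653 CPM in Psd1_oe2, and 1201 and 1182 CPM in WT. Its fall in Psd1_oe2 against WT was log2 -0.87 ± 0.05 (edgeR adjusted p = 4.97e-07). Of the membrane anchors, SDH4 fell by 1.07 ± 0.06 and SDH3 by 0.73 ± 0.05 on the log2 scale. SDH3 (YKL141W, chromosome XI, 179667 to 180263) changed least in the complex, with 475 and 472 CPM in Psd1_oe_Pdr3_ko2, 385 and 378 CPM in Psd1_oe2, and 619 and 646 CPM in WT, and its groups did not overlap.

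Complex III had a median of log2 -0.78, and its 9 subunit genes fell within a narrow range, from -0.998 for QCR6 to -0.69 for QCR10. The core subunits COR1 (-0.92 ± 0.05) and QCR2 (-0.85 ± 0.05), which face the matrix and carry no redox centre, had a median of -0.89. CYT1 (YOR065W, chromosome XV, 447439 to 448368), which encodes cytochrome c1, had 944 and 864 CPM in Psd1_oe_Pdr3_ko2, 741 and 727 CPM in Psd1_oe2, and 1424 and 1252 CPM in WT. RIP1 (YEL024W, chromosome V, 107260 to 107907), the Rieske iron-sulfur protein, had 681 and 657 CPM in Psd1_oe_Pdr3_ko2, 528 and 503 CPM in Psd1_oe2, and 853 and 859 CPM in WT. Both catalytic genes kept their groups apart, with log2 fold changes of -0.87 ± 0.07 for CYT1 (edgeR adjusted p = 3.39e-06) and -0.73 ± 0.05 for RIP1 (edgeR adjusted p = 9.32e-07) in Psd1_oe2 against WT. QCR6 (YFR033C, chromosome VI, 224326 to 224769), the acidic hinge protein beside cytochrome c1, had 833 and 819.9 CPM in Psd1_oe_Pdr3_ko2, 635 and 561 CPM in Psd1_oe2, and 1187 and 1202 CPM in WT. QCR10 (YHR001W-A, chromosome VIII, 107826 to 108122), a small peripheral subunit, had 209.7 and 199.5 CPM in Psd1_oe_Pdr3_ko2, 154 and 159 CPM in Psd1_oe2, and 256 and 249 CPM in WT. Neither gene had overlapping groups. The other supernumerary genes lay between them, at -0.78 for QCR7, -0.72 for QCR9 and -0.70 for QCR8.

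Complex IV had a median of log2 -0.77 and held COX26, the gene of the 35 that did not pass the test. The 7 genes other than COX26 fell, from log2 -1.01 for COX4 to -0.54 for COX13, with COX8 at -0.87, COX6 and COX9 at -0.81, COX12 at -0.73 and COX7 at -0.72. All encode small subunits that surround the mitochondrially encoded catalytic core. COX4 (YGL187C, chromosome VII, 149704 to 150171), a subunit needed for assembly of the enzyme, had 509.6 and 477 CPM in Psd1_oe_Pdr3_ko2, 368 and 364 CPM in Psd1_oe2, and 728 and 748 CPM in WT. Its libraries did not overlap between groups, and it fell 2.02-fold in Psd1_oe2 against WT (log2 -1.01 ± 0.05, edgeR adjusted p = 1.64e-07). COX13 (YGL191W, chromosome VII, 144808 to 145197) had 462 and 477 CPM in Psd1_oe_Pdr3_ko2, 414 and 369.6 CPM in Psd1_oe2, and 562 and 579.5 CPM in WT. The 3 groups were again apart, and the fall was 1.46-fold (log2 -0.54 ± 0.06, edgeR adjusted p = 3.06e-05).

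COX26 (YDR119W-A, chromosome IV, 691014 to 691214), a small membrane subunit of complex IV, was counted far less than the others. It had 132 and 78 counts in Psd1_oe_Pdr3_ko2, 94 and 92 counts in Psd1_oe2, and 74 and 68 counts in WT, which is 10.9 and 6.80 CPM in Psd1_oe_Pdr3_ko2, 8.27 and 9.02 CPM in Psd1_oe2, and 6.43 and 5.55 CPM in WT. Its WT libraries were the lowest, and the Psd1_oe_Pdr3_ko2 libraries lay on either side of those of Psd1_oe2. Its call depended on the fit: it was called higher in Psd1_oe2 against WT when Psd1_oe_Pdr3_ko2 replicate 1 (edgeR adjusted p = 0.0205) or replicate 2 (0.0196) was left out of the shared spread, when only the groups compared were fitted (0.0208), and with PSD1, galactose, ribosomal RNA and mitochondrial genes kept out of the library sizes (0.0463). Over all alternatives its adjusted p ran from 0.0196 to 0.24, the highest without Psd1_oe2 replicate 2, and its log2 fold change from 0.42 to 0.64.

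ATP synthase had a median of log2 -0.87 over its 14 genes. In the F1 head, ATP1 (YBL099W, chromosome II, 37053 to 38690), the alpha subunit, had 1757 and 1617 CPM in Psd1_oe_Pdr3_ko2, 1346 and 1274 CPM in Psd1_oe2, and 2689 and 2551 CPM in WT. ATP2 (YJR121W, chromosome X, 647607 to 649142), the catalytic beta subunit, had 2769 and 2514 CPM in Psd1_oe_Pdr3_ko2, 2036 and 2065 CPM in Psd1_oe2, and 4502 and 4044 CPM in WT. Both genes had 3 separate groups, with log2 fold changes in Psd1_oe2 against WT of -1.0 ± 0.06 for ATP1 (edgeR adjusted p = 6.47e-07) and -1.06 ± 0.07 for ATP2 (edgeR adjusted p = 1.1e-06), the largest in the complex. The central stalk genes ATP3 (gamma) and ATP16 (delta) fell by 0.90 and 0.89 on the log2 scale. ATP15 (YPL271W, chromosome XVI, 30079 to 30267), the epsilon subunit of the same stalk, fell least of the 34 genes, with 221 and 221 CPM in Psd1_oe_Pdr3_ko2, 189 and 183 CPM in Psd1_oe2, and 268 and 269.8 CPM in WT (log2 -0.53 ± 0.05, edgeR adjusted p = 5.35e-06). Its groups were also apart. The 4 genes of the peripheral stalk that holds the head still (ATP4, ATP5, ATP7 and ATP14) fell alike, from -0.87 to -0.82. Among the small membrane subunits, ATP17 fell by 0.90 and ATP18 by 0.64 on the log2 scale, and among the genes tied to dimers of the enzyme, ATP20 fell by 1.04, TIM11 by 0.87 and ATP19 by 0.60.

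A fall of at least 2-fold was seen for 5 of the 35 genes (SDH1, SDH4, COX4, ATP2 and ATP20), against 0.956% of all tested loci. ATP1 (log2 -0.9999 ± 0.06) and QCR6 (-0.9981 ± 0.06) lay just short of that limit, by less than their SE. Longer genes tended to have the larger falls: over the 35 genes, which share libraries and are not independent, log2 fold change and exon length correlated at Pearson r = -0.44 and Spearman rho = -0.65 in Psd1_oe2 against WT, and at r = -0.56 and rho = -0.70 in Psd1_oe_Pdr3_ko2 against WT. In Psd1_oe_Pdr3_ko2 against Psd1_oe2 the values were r = -0.03 and rho = -0.07. The correlation over all tested loci was not computed, so a trend shared by all loci cannot be told apart.

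**Figure D2:**
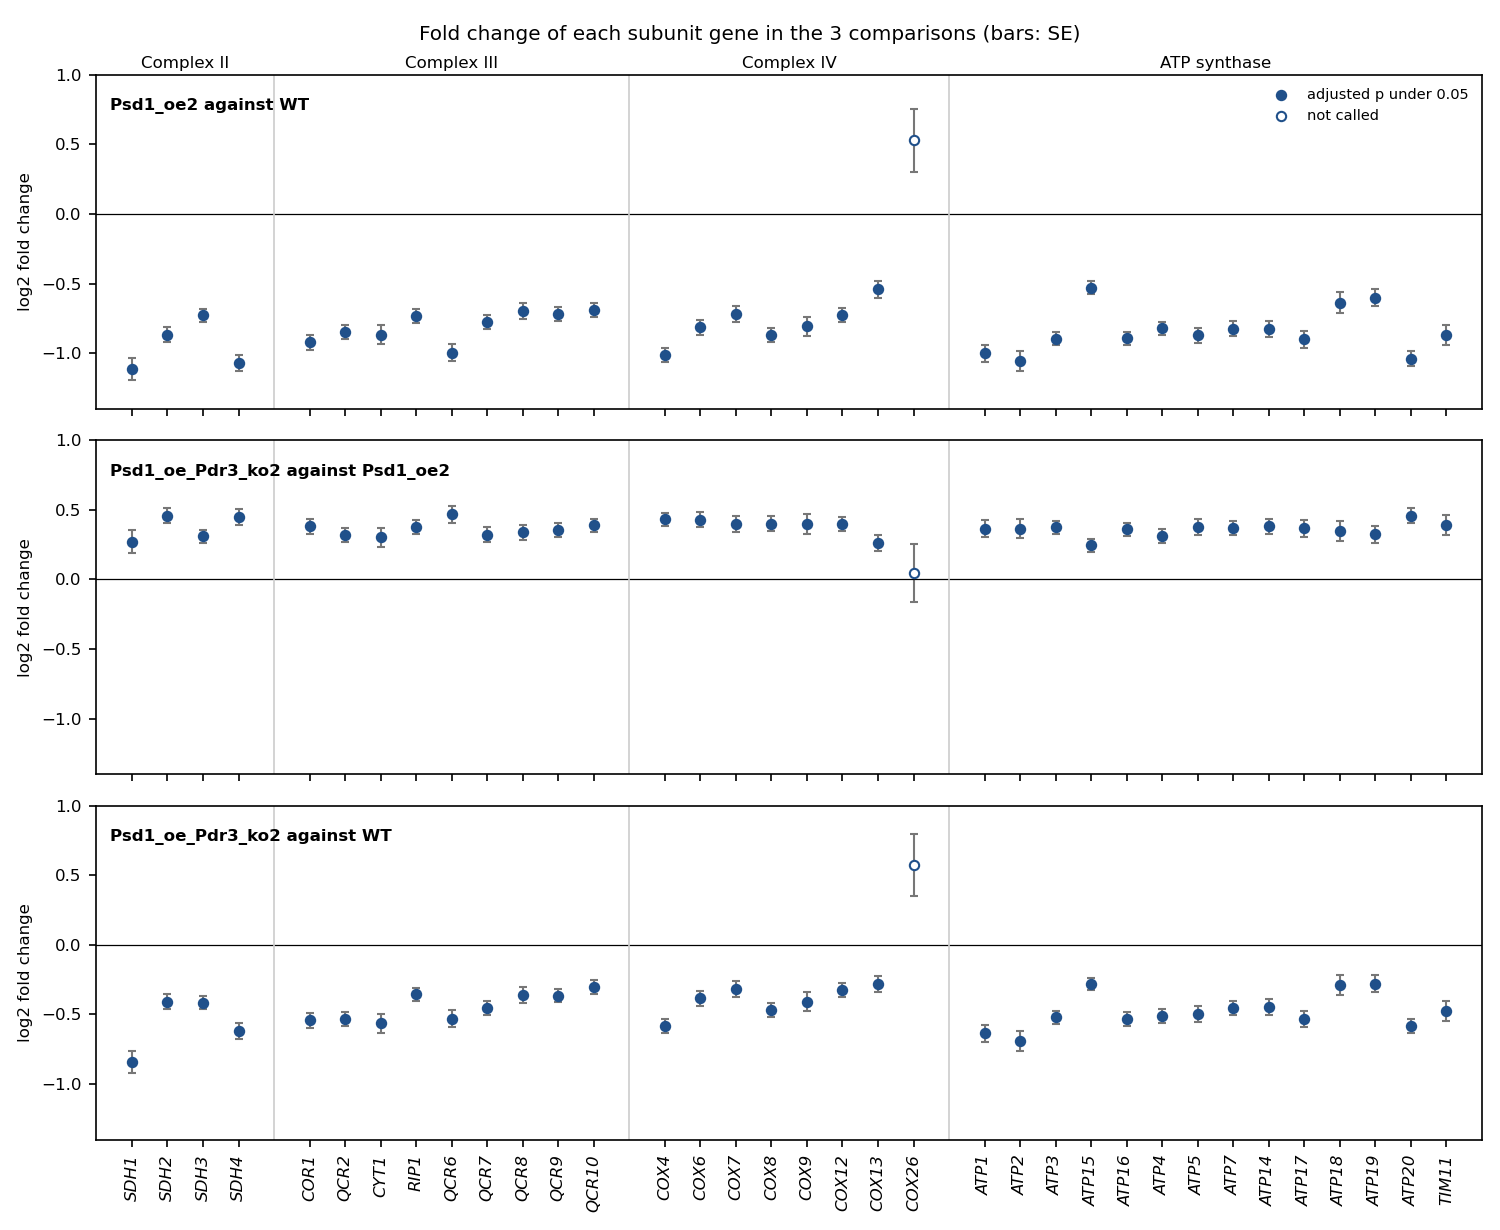
Log2 fold change of each subunit gene (vertical axis; bars are SE, n = 2 libraries per group) in the 3 comparisons, one per panel, with genes grouped by complex. Filled points passed an edgeR adjusted p of 0.05, and the open point, COX26, did not in any panel; in the middle panel the other 34 genes lie between 0.25 and 0.47.

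The second comparison set cells without PDR3 against cells with it, while both overexpressed PSD1. In Psd1_oe_Pdr3_ko2, 34 of the 35 genes were higher than in Psd1_oe2 and none was lower, while 11.8% of all tested loci were higher and 9.12% lower (edgeR adjusted p under 0.05). The median was log2 0.37, against -0.0009 for all tested loci, whose 95th percentile was 0.31. The complexes had like medians, at 0.38 for complex II, 0.35 for complex III, 0.40 for complex IV and 0.37 for ATP synthase. For 34 of the 35 genes both Psd1_oe_Pdr3_ko2 libraries lay above both Psd1_oe2 libraries, against 32.2% of all tested loci.

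Of the genes that rose, QCR6 rose most, by log2 0.47 ± 0.06 (edgeR adjusted p = 0.00113), followed by SDH2 (0.46 ± 0.05, edgeR adjusted p = 0.000533) and ATP20 (0.46 ± 0.05, edgeR adjusted p = 0.000733). ATP15 rose least, by 0.25 ± 0.05 (edgeR adjusted p = 0.00572), with COX13 at 0.26 ± 0.06 and SDH1 at 0.27 ± 0.08 (edgeR adjusted p = 0.0139 and 0.0378). COX26 was at 0.05 ± 0.21 (edgeR adjusted p = 0.905). Among the catalytic genes, RIP1 rose by 0.38, ATP2 and ATP1 by 0.37 and 0.36, and CYT1 by 0.30 on the log2 scale.

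The number of calls in this comparison depended on single libraries. Without Psd1_oe2 replicate 2, 21 of the 35 genes were called higher and 233 loci were called in all, against 1291 with all libraries. That fit has a single Psd1_oe2 library, which is assumed to vary like those of the other groups. The median of the 35 genes was then 0.32, against 0.37 with all libraries. The 13 genes that lost the call were SDH1, CYT1, QCR7, QCR8, COX9, COX13, ATP1, ATP2, ATP15, ATP17, ATP18, ATP19 and TIM11. The loci called were 535 without Psd1_oe2 replicate 1, and 796 and 615 without Psd1_oe_Pdr3_ko2 replicates 1 and 2, and these fits lost at most 3 calls among the 35 genes. PSD1 itself was lower in Psd1_oe_Pdr3_ko2 than in Psd1_oe2 (log2 -0.75 ± 0.09, edgeR adjusted p = 0.000668). URA3, a gene read as a check, was also called lower in this comparison, at log2 -1.28. Against WT, URA3 was called lower too, at log2 -1.73 in Psd1_oe_Pdr3_ko2 and -0.44 in Psd1_oe2. Whether the strains differ in more than PDR3 was not tested. Of the 7 galactose genes, 2 were called higher, GAL3 and GAL80 (0.25 ± 0.04 and 0.24 ± 0.05), beside 11.8% of all tested loci. The median of the 7 was log2 0.39, and the largest value was 0.49 for GAL2, which was not called. For 6 of the 7 the libraries lay higher without overlap, against 32.2% of all tested loci. The part of PSD1, of URA3 and of the galactose genes in the rise of the subunit genes was not tested.

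The third comparison set Psd1_oe_Pdr3_ko2 against WT. Here 34 of the 35 fell and none rose, while 19.5% of all tested loci fell and 19.6% rose (edgeR adjusted p under 0.05). For these 34 genes the libraries did not overlap, against 33.6% of all tested loci, and no gene fell 2-fold, against 0.405% of all tested loci. The median was log2 -0.45, a 1.37-fold lower level, with the 5th percentile of all tested loci at -0.53. The complex medians were -0.52 for complex II, -0.45 for complex III, -0.36 for complex IV and -0.50 for ATP synthase. SDH1 was lowest at -0.84 ± 0.08 (edgeR adjusted p = 2.09e-05) and ATP2 next at -0.69 ± 0.07 (edgeR adjusted p = 3.87e-05), while ATP19, COX13 and ATP15 fell least, each at -0.28. COX26 was at 0.57 ± 0.22 (edgeR adjusted p = 0.0651) and depended on its Psd1_oe_Pdr3_ko2 libraries, at 0.87 without replicate 2 (edgeR adjusted p = 0.00498) and 0.18 without replicate 1 (edgeR adjusted p = 0.557). This comparison shares its WT libraries with the first and its Psd1_oe_Pdr3_ko2 libraries with the second, so its values follow from theirs. When PSD1, galactose, ribosomal RNA and mitochondrial genes were kept out of the library sizes, 68.5% of all called loci were higher, against 50.1% in the main scaling, and the median of the 35 genes was -0.38.

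Between genes, levels were compared per length, as CPM per kilobase of exon. Apart from COX26, which was set aside after its values were seen, the 34 genes lay within a 4.3-fold range in Psd1_oe_Pdr3_ko2, a 3.76-fold range in Psd1_oe2 and a 3.58-fold range in WT. QCR6 was highest in Psd1_oe_Pdr3_ko2 and in Psd1_oe2, at 1862 and 1347 CPM per kilobase, and ATP2 was highest in WT, at 2782 CPM per kilobase, just above QCR6 at 2690. In WT the gap between ATP2 and QCR6 was smaller than the SD of ATP2 over its libraries. SDH1 was the lowest of the 34 in every group, at 432.7 CPM per kilobase in Psd1_oe_Pdr3_ko2, 358.3 in Psd1_oe2 and 776.5 in WT. COX26 was at 44.1 CPM per kilobase in Psd1_oe_Pdr3_ko2, 43.0 in Psd1_oe2 and 29.8 in WT.

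Within complex IV the 7 genes other than COX26 had nearly even levels, within 1.31-fold in Psd1_oe_Pdr3_ko2, 1.44-fold in Psd1_oe2 and 1.38-fold in WT. The genes of complex II spread over 2.59-fold in Psd1_oe_Pdr3_ko2, 2.28-fold in Psd1_oe2 and 1.92-fold in WT, with SDH2 highest and SDH1 lowest in each. The deposited FPKM values order short genes differently: in WT they stand at 0.965 times the CPM per kilobase for SDH1 and at 9.47 times for COX9, so that COX9 (12400 FPKM), QCR9 (12870 FPKM) and ATP18 (10450 FPKM) lead their complexes on that scale. Both scales put COX26 lowest in complex IV and SDH1 lowest in complex II.

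**Figure D3:**
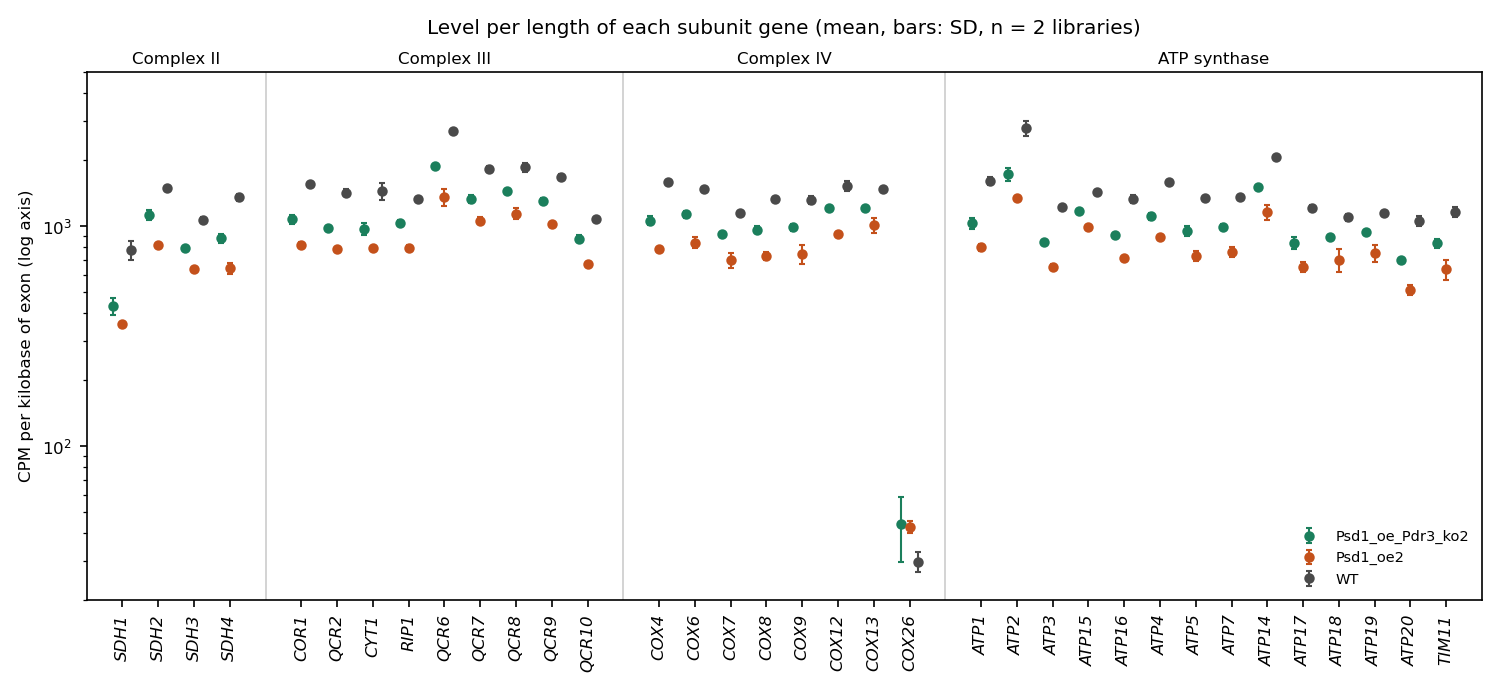
Level of each subunit gene as CPM per kilobase of exon (vertical log axis), mean and SD of 2 libraries in Psd1_oe_Pdr3_ko2 (green), Psd1_oe2 (orange) and WT (grey). COX26 lies at 44.1 or below in every group, and the other 34 genes lie between 358.3 and 2782.

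Genes outside the 35 that make, replace or serve the complexes were read beside them. COX5A and COX5B encode alternative forms of the same complex IV subunit, COX5A used with oxygen and COX5B when oxygen is scarce. COX5A fell in Psd1_oe2 against WT (log2 -0.87 ± 0.06, edgeR adjusted p = 1.55e-06) and COX5B rose (1.24 ± 0.10, edgeR adjusted p = 3.41e-06). Per length, COX5A exceeded COX5B by 27.5 and 24.8 times in Psd1_oe_Pdr3_ko2, 15.2 and 14.1 times in Psd1_oe2, and 63.5 and 63.0 times in WT. The ratio was lowest in Psd1_oe2 and highest in WT, with no overlap between groups.

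The paralogs of complex II subunits also rose in Psd1_oe2 against WT. SDH9 (YJL045W), a paralog of SDH1, had 500 and 425 counts in Psd1_oe_Pdr3_ko2, 589 and 518 counts in Psd1_oe2, and 97 and 117 counts in WT (2.51 ± 0.10 on the log2 scale in Psd1_oe2 against WT, edgeR adjusted p = 4.95e-08). SHH3 and SHH4, paralogs of SDH3 and SDH4, rose by 1.30 ± 0.11 and 1.13 ± 0.21. The Psd1_oe2 libraries differed for SHH4. SDH4 exceeded SHH4 per length by 24.5 and 26.9 times in Psd1_oe_Pdr3_ko2, 24.1 and 13.9 times in Psd1_oe2, and 85.7 and 79.2 times in WT. SDH1 exceeded SDH9 per length by 21.2 and 20.8 times in Psd1_oe_Pdr3_ko2, 13.4 and 13.3 times in Psd1_oe2, and 188 and 144 times in WT, and the sources do not say how reads of near-identical stretches were counted. In Psd1_oe_Pdr3_ko2 against Psd1_oe2, COX5A rose (0.42 ± 0.06) and COX5B, SDH9 and SHH3 fell (-0.42 ± 0.09, -0.39 ± 0.08 and -0.39 ± 0.10), while SHH4 was at -0.06 ± 0.19.

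The mobile carrier of electrons between complexes III and IV showed a like split. CYC1, the main cytochrome c, had 1149 and 1063 CPM in Psd1_oe_Pdr3_ko2, 826 and 784 CPM in Psd1_oe2, and 1577 and 1455 CPM in WT, and fell in Psd1_oe2 against WT by 0.91 ± 0.06 on the log2 scale. CYC7, the minor form, had 73.7 and 74.3 CPM in Psd1_oe_Pdr3_ko2, 85.4 and 80.7 CPM in Psd1_oe2, and 29.98 and 27.2 CPM in WT, and rose by 1.54 ± 0.07 (edgeR adjusted p = 8.79e-08). A list of 9 genes held electron carriers, dehydrogenases that feed the chain and CYC3, which encodes the haem lyase of cytochrome c. Of the 9, 3 rose and 6 fell in Psd1_oe2 against WT, and 5 rose and 2 fell in Psd1_oe_Pdr3_ko2 against Psd1_oe2. Of all tested loci, 27.9% rose and 27.9% fell in the first of these comparisons, and 11.8% rose and 9.12% fell in the second. The external NADH dehydrogenase gene NDE1 fell in Psd1_oe2 against WT (-0.88 ± 0.06), as did the internal one, NDI1 (-0.76 ± 0.06), and NDE2 rose (1.73 ± 0.10). The ADP and ATP carrier gene PET9 (-1.21 ± 0.07) and the phosphate carrier gene MIR1 (-1.02 ± 0.05), which supply ATP synthase, fell in the same comparison. Their list of 5 carriers had 2 rises and 2 falls, beside 27.9% of all tested loci each way, with AAC1 at 0.43 ± 0.07 and PIC2 at 0.58 ± 0.09.

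In Psd1_oe2 against WT, assembly factors of complexes II, III and IV that passed the test were more often higher than lower. Of 6 assembly factors of complex II, 4 rose and 1 fell in Psd1_oe2 against WT (median log2 0.63), with SDH7 at 0.86 ± 0.05 and SDH5, which adds the flavin to Sdh1, at 1.02 ± 0.07. Of 13 factors of complex III, 8 rose and 1 fell (median 0.22), with CBP4 at 0.86 ± 0.05. Of 36 factors of complex IV, 22 rose and 6 fell (median 0.39), among them PET117 (1.03 ± 0.06) and SCO1 (0.76 ± 0.05), a copper carrier, both higher. Of 14 factors of ATP synthase, 5 rose and 3 fell (median -0.02), with NCA3 far above the rest at 2.49 ± 0.11. In this comparison 27.9% of all tested loci rose and 27.9% fell, and with PSD1, galactose, ribosomal RNA and mitochondrial genes kept out of the library sizes, 59.6% of the 3474 called loci were higher, against 50% in the main scaling.

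In Psd1_oe_Pdr3_ko2 against Psd1_oe2, 11.8% of all tested loci rose and 9.12% fell. None of the 6 complex II factors rose and 3 fell, none of the 13 complex III factors rose and 2 fell, 1 of 36 complex IV factors rose and 1 fell, and 1 of 14 ATP synthase factors rose and 1 fell. The translation activator gene AEP2, which serves the mitochondrially encoded ring subunit of ATP synthase, was the ATP synthase factor that rose (0.36 ± 0.05, edgeR adjusted p = 0.00233). In Psd1_oe_Pdr3_ko2 against WT the 4 lists had 3, 8, 22 and 6 rises and 1, 0, 3 and 3 falls, where 19.6% of all tested loci rose and 19.5% fell.

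**Figure D4:**
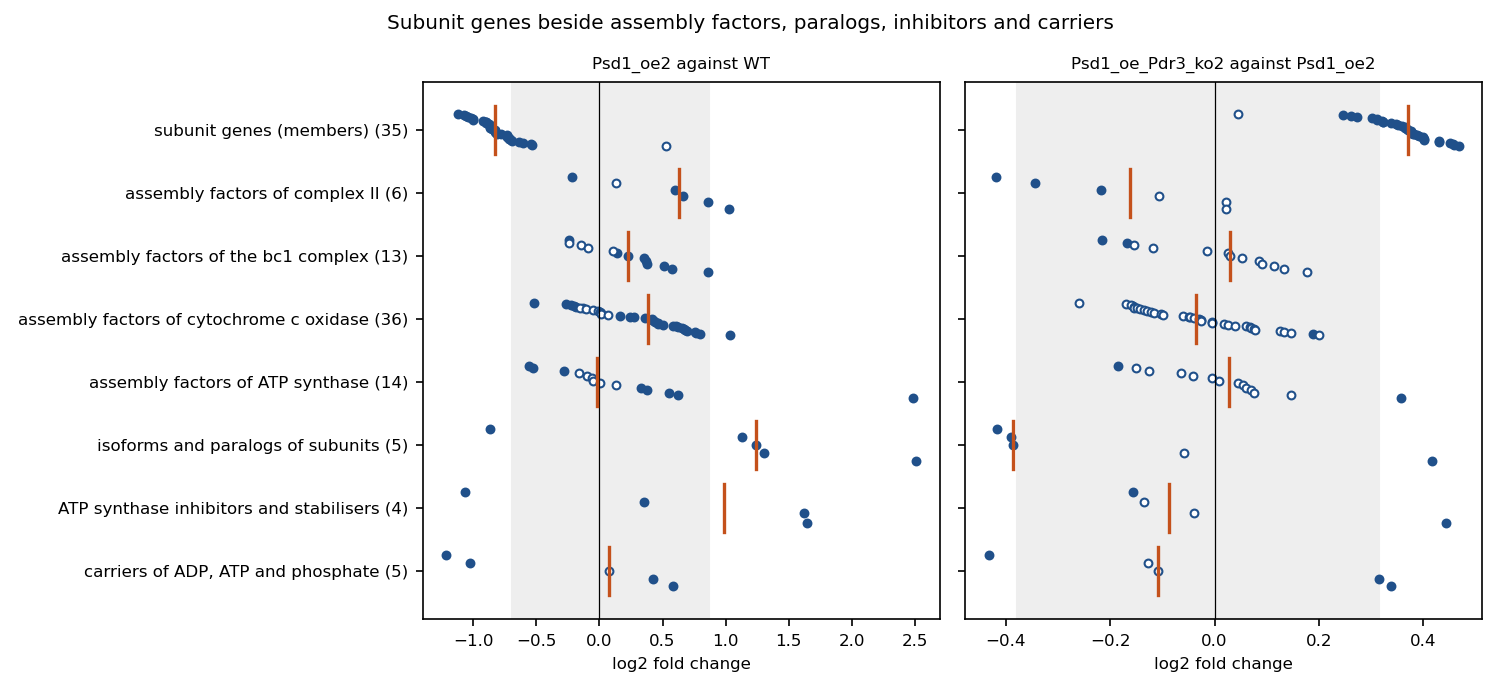
Log2 fold change (horizontal axis) of the 35 subunit genes and of lists of related genes (number of genes in brackets) in Psd1_oe2 against WT (left) and Psd1_oe_Pdr3_ko2 against Psd1_oe2 (right). Filled points passed an edgeR adjusted p of 0.05, open points did not, orange lines are medians, and the grey band spans the 5th to 95th percentile of all tested loci; the subunit median lies outside the band in both panels, at -0.83 and 0.37.

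Of the 4 inhibitors and stabilisers of ATP synthase, INH1, which blocks ATP hydrolysis by the enzyme, had 179 and 176 CPM in Psd1_oe_Pdr3_ko2, 134 and 127 CPM in Psd1_oe2, and 276 and 269.6 CPM in WT. It moved in the direction of the subunit genes, at -1.06 ± 0.05 in Psd1_oe2 against WT (edgeR adjusted p = 9.84e-08) and 0.44 ± 0.05 in Psd1_oe_Pdr3_ko2 against Psd1_oe2 (edgeR adjusted p = 0.000509). Its relative STF1 rose by 0.35 ± 0.06 in Psd1_oe2 against WT, and STF2 and TMA10, related to each other, rose by 1.62 ± 0.05 and 1.65 ± 0.06. Of 11 genes of ubiquinone synthesis, which make the carrier between complexes II and III, 8 rose and 1 fell in Psd1_oe2 against WT (median 0.42), led by COQ4 at 0.78 ± 0.06. Of 8 genes of haem synthesis, which supply the cytochromes, 1 rose and 5 fell (median -0.15), HEM3 by 0.59 ± 0.06 on the log2 scale. The shares of all tested loci in this comparison were 27.9% higher and 27.9% lower.

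The mitochondrially encoded subunits could not be compared. At most 0.0033% of the counts of any library came from the mitochondrial genome, and of COB, COX1, COX2, COX3, ATP6, ATP8 and OLI1 only COX1 passed the filter. COX1 had 59 and 21 counts in Psd1_oe_Pdr3_ko2, 42 and 16 counts in Psd1_oe2, and 27 and 23 counts in WT, with overlapping groups and no call in any comparison.

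Among the known regulators, HAP4 moved with the subunit genes. It had 511.6 and 535 CPM in Psd1_oe_Pdr3_ko2, 445 and 455 CPM in Psd1_oe2, and 643 and 634 CPM in WT. The 3 groups did not overlap, and the log2 fold changes were -0.51 ± 0.05 in Psd1_oe2 against WT (edgeR adjusted p = 9.41e-06), 0.22 ± 0.05 in Psd1_oe_Pdr3_ko2 against Psd1_oe2 (edgeR adjusted p = 0.011) and -0.29 ± 0.05 in Psd1_oe_Pdr3_ko2 against WT (edgeR adjusted p = 0.000794). The DNA-binding partners differed: in Psd1_oe2 against WT, HAP5 rose by 0.74 ± 0.07 and HAP2 by 0.32 ± 0.08, and HAP3 was at -0.01 ± 0.08. Of the 7 regulators listed, 3 rose and 2 fell in that comparison, in which 27.9% of all tested loci rose and 27.9% fell. In Psd1_oe_Pdr3_ko2 against Psd1_oe2, 1 of the 7 rose and 2 fell, with HAP5 lowest at -0.22, beside 11.8% and 9.12% of all tested loci. In Psd1_oe_Pdr3_ko2 against WT, 2 rose and 1 fell, beside 19.6% and 19.5%.

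Since the genes moved together, the 500 bases before each start codon were searched for the letters that the HAP complex binds, in the R64 reference genome of RefSeq, which is strain S288C and not W303. CCAAT, on either strand, was present before 32 of the 35 genes (91.4%) and before 62.7% of all 5945 protein-coding genes; CYT1, COX4 and COX26 had none. The longer TNATTGGT, on either strand, was present before 16 of the 35 genes (45.7%) and before 8.61% of all protein-coding genes, and each match holds a CCAAT on the opposite strand. The share was 57.1% for ATP synthase, 50% for complex IV, 33.3% for complex III and 25% for complex II. It was 16.7% for the assembly factors of complex II, 8.33% for those of complex IV and 14.3% for those of ATP synthase, and none of the 13 factors of complex III had a match. A match is a description of the letters and not a bound site, and a window can reach into a neighbouring gene.

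**Figure D5:**
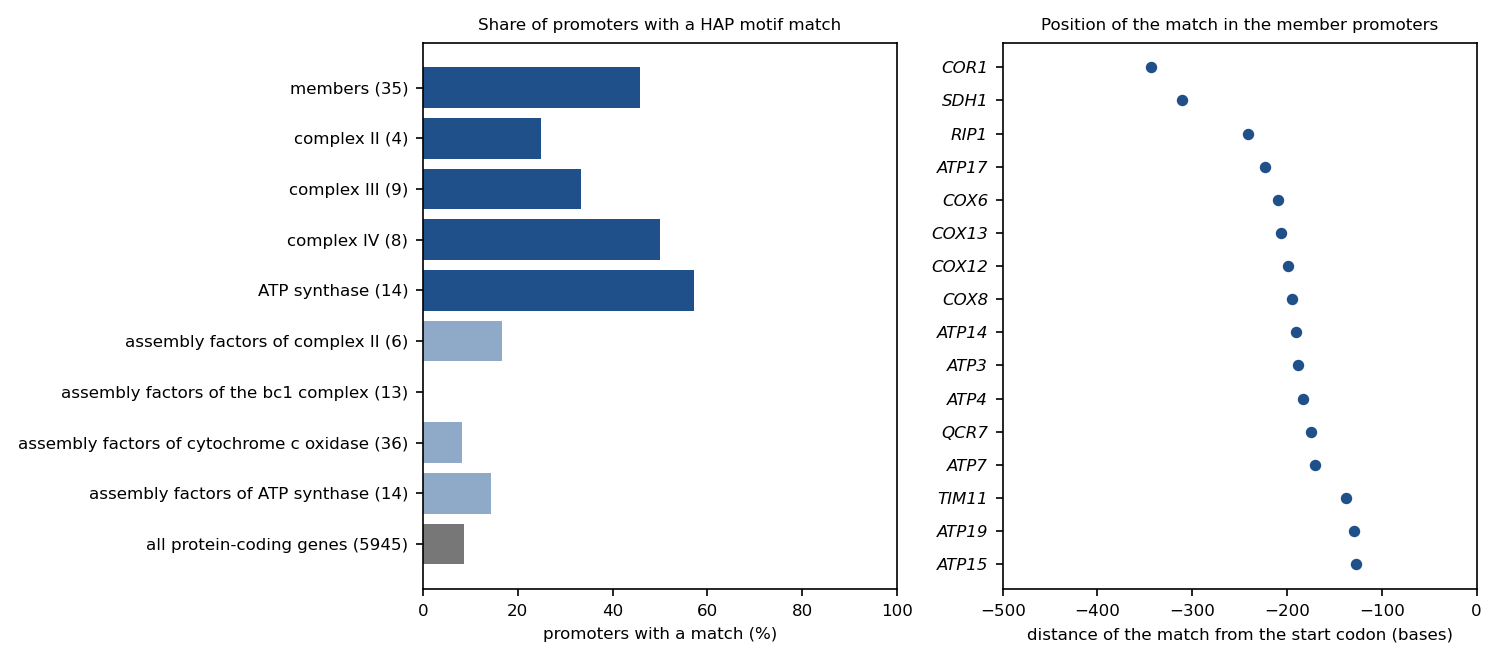
Left, share of genes (horizontal axis, percent) with a match to the longer HAP motif in the 500 bases before the start codon, for the subunit genes, the lists of assembly factors and all protein-coding genes (number of genes in brackets). Right, distance of the match from the start codon in bases for the 16 subunit genes that have one, from 127 for ATP15 to 344 for COR1.

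The matches lay 127 to 344 bases before the start codon, with a median of 193, and 14 of the 16 lay within 250 bases. The 100 bases around the match are printed for the genes with the largest and the smallest fall in each complex among those with a match, on the strand of the gene, 5′ to 3′, with the match in capitals. Complex II has only SDH1. The windows are chrXI:171394-171493 (minus strand) for SDH1, chrII:135814-135913 (minus) for COR1, chrV:106966-107065 (plus) for RIP1, chrXII:910114-910213 (minus) for COX8, chrVII:144549-144648 (plus) for COX13, chrIV:1228335-1228434 (plus) for ATP17 and chrXVI:29899-29998 (plus) for ATP15.
SDH1: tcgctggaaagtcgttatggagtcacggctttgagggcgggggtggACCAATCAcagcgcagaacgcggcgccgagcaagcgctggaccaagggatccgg
COR1: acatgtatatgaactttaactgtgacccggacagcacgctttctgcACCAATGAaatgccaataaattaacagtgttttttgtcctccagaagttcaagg
RIP1: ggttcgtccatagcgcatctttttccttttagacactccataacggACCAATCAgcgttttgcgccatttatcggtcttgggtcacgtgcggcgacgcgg
COX8: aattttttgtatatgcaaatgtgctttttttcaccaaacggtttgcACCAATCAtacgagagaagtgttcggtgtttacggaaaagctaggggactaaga
COX13: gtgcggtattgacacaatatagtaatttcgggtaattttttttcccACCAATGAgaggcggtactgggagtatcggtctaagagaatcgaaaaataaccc
ATP17: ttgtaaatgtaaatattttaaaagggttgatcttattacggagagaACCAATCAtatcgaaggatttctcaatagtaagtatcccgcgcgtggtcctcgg
ATP15: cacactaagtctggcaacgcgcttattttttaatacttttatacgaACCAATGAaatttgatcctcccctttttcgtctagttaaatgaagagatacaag

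In these 7 windows the match reads ACCAATCA or ACCAATGA on the strand of the gene. The genes with the smallest fall in complex IV and in ATP synthase, COX13 and ATP15, both hold a match, as does SDH1 with the largest fall. The 16 genes with a match had a median log2 fold change of -0.82 in Psd1_oe2 against WT and the 19 without had -0.87. In Psd1_oe_Pdr3_ko2 against Psd1_oe2 both medians were 0.37.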

How the data were processed

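TruSeq libraries were made, per the labels' protocols. The submitters' processing notes name Cufflinks 2.2.0, Cuffdiff 2.2.0, TopHat2 2.0.9, SAMtools 0.1.18, Bowtie2 2.1.0 and the build sacCer3 (R64). Which tool counted, and with what strand setting, is not given in the sources used. The deposited counts are whole reads for each of 6931 loci, and the deposited FPKM values cover those loci after scaling by length and depth. Of the loci, 115 hold several genes and were kept whole.

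The test was edgeR 4.0.16 in R 4.3.3 on the counts (TMM, edgeR's expression filter, quasi-likelihood test over all 6 libraries, Benjamini-Hochberg), which left 6171 loci, a biological coefficient of variation of 4.66% and 3 residual degrees of freedom. A locus was called at an adjusted p under 0.05. Each SE was obtained by dividing the size of the log2 fold change by the square root of its F statistic. Levels between genes are given as CPM per kilobase of exon, added after the FPKM of short genes were seen, beside FPKM. Replicates differed by more than counting noise (chi-square per degree of freedom 5.91 in Psd1_oe_Pdr3_ko2, 3.02 in Psd1_oe2 and 7.18 in WT).

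The 35 genes and the lists were chosen with earlier results of these data known. Values per library are given for the largest and smallest change in each complex, genes not called and catalytic genes, and for other lists at most 3 genes by smallest p, apart from PSD1, PDR3, HAP4, COX5A, COX5B, CYC1, CYC7 and INH1. SHH4, AAC1, HAP2, HAP3, QCR7 and the other genes given beside them were named to complete their group. Alternatives were DESeq2 1.42.0, limma-trend (limma 3.58.1) on log2(FPKM + 1) and log2(FPKM + 0.1), other scalings and filters, a replicate block, fits of 2 groups, each library left out and a 2-fold minimum.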

Additional observations from a re-analysis of the deposited data

How the results depend on the processing

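In both comparisons with WT, 34 genes were called lower under every alternative except the 2-fold minimum. That minimum left 5 lower in Psd1_oe2 against WT (301 loci, 59 lower), 0 in Psd1_oe_Pdr3_ko2 against Psd1_oe2 (26 loci, 25 lower) and 0 lower in Psd1_oe_Pdr3_ko2 against WT (163 loci, 25 lower). COX26 made the count of higher genes 1 in both comparisons with WT under some settings: with PSD1, galactose, ribosomal RNA and mitochondrial genes out of the library sizes, and with the replicate block. In Psd1_oe2 against WT, fitting only those groups did the same. The labels do not say that equal replicate numbers pair samples, and deviations of same-numbered samples correlated at 0.04 (Psd1_oe2 and WT), -0.03 (Psd1_oe_Pdr3_ko2 and Psd1_oe2) and 0.27 (Psd1_oe_Pdr3_ko2 and WT); with the block, 3491, 1393 and 2483 loci were called in the 3 comparisons and COX26 had edgeR adjusted p = 0.0484 and 0.0441 against WT. The reduced library sizes moved the medians to -0.77 (all), -0.91 (complex II), -0.72 (III) and -0.81 (ATP synthase) in Psd1_oe2 against WT, and to -0.38 (all), -0.38 (III), -0.28 (IV) and -0.43 (ATP synthase) in Psd1_oe_Pdr3_ko2 against WT. For Psd1_oe_Pdr3_ko2 against Psd1_oe2, DESeq2 called 808 loci (329 lower) and limma-trend 829 and 825 with pseudocounts of 0.1 and 1, which lost SDH1, COX13 and ATP18. The cause was not tested.

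Leaving out 1 library at a time, Psd1_oe_Pdr3_ko2 against Psd1_oe2 had 21 to 34 genes higher, 233 to 1533 loci called and 132 to 688 lower, with medians of 0.32 to 0.42 for ATP synthase and 0.34 to 0.44 for complex IV. Genes called higher ran from 0 to 1 in each comparison with WT. The median ran from -0.997 to -0.93 for complex II in Psd1_oe2 against WT and from -0.50 to -0.41 for complex III in Psd1_oe_Pdr3_ko2 against WT. COX26 in Psd1_oe_Pdr3_ko2 against Psd1_oe2 turned to -0.02 without Psd1_oe2 replicate 1 and to -0.34 without Psd1_oe_Pdr3_ko2 replicate 1. Leaving COX26 out, an alternative chosen after seeing the data, moved no median beyond the spread between libraries. With 68 to 132 counts per library, COX26 was measured less precisely than the other genes.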
